A study of Homo sapiens with 8 samples.

Results

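The SR and hnRNP splicing regulators were followed in RD18 cells, a clonal line of human fusion-negative rhabdomyosarcoma (FN-RMS), a tumour of the skeletal muscle lineage. Cells were transfected with the microRNAs miR-449a and miR-340-5p together (4 libraries) or received the transfection reagent lipofectamine alone as vehicle (4 libraries), and RNA was taken at 60 h in both groups. The vehicle cells received no control RNA, so the microRNA pair and the presence of transfected RNA cannot be told apart. The genes were chosen by symbol: SRSF followed only by digits, HNRNP without pseudogene or antisense symbols, the transformer-2 genes TRA2A and TRA2B, and PTBP1, PTBP2 and PTBP3. This gave 40 of the 22808 symbols in the table, made up of 12 SRSF, 2 TRA2, 23 HNRNP and 3 PTBP genes. A further 60 HNRNP pseudogene symbols were left out.

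SR proteins carry RNA-binding domains and a tail rich in arginine and serine, and most of them promote the inclusion of exons by binding exonic enhancers. The hnRNP proteins coat nascent transcripts and often oppose SR proteins at the same exons, and PTB proteins repress exons at pyrimidine-rich stretches. Many of these genes control their own level through exons that send the transcript to nonsense-mediated decay. The counts are per gene, so productive and decaying isoforms of a gene were not separated.

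Total counts were 5443379, 5569342, 2842165 and 2913944 in the libraries with the microRNAs, and 2567737, 4209215, 4650213 and 4033900 in the vehicle libraries. Mitochondrially encoded genes took 20.6% to 22.2% of counts with the microRNAs and 18.1% to 23.3% with vehicle. Of the muscle markers, MYOD1 measured 105 to 113 CPM with the microRNAs and 189 to 236 CPM with vehicle, and DES 58.3 to 74.4 CPM against 98.8 to 120 CPM. FGFR4 measured 14.5 to 16.2 CPM with the microRNAs and 72.3 to 89.4 CPM with vehicle, MYOG 0.322 to 1.07 CPM against 8.79 to 12.9 CPM, PAX7 3.79 to 7.63 CPM against 8.76 to 12.4 CPM, and CHRNA1 609 to 644 CPM against 797 to 836 CPM. CPM values are counts relative to the library total after TMM scaling. The leukocyte marker PTPRC stayed between 0.888 and 1.88 CPM with the microRNAs and between 0.837 and 2.01 CPM with vehicle, PECAM1 had 2 and 6 counts in all, EPCAM had 21 counts and 1 count, and LUM had 5 and 106 counts. The groups did not overlap for these 6 muscle markers, EPCAM and LUM, which thus moved with the treatment, and their part in the results was not tested. Whether the replicates are separate cultures is not stated in the labels, and the spread that the p-values rest on may be technical.

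The mature microRNAs are shown first because their seeds, bases 2 to 8 in capitals, define the words searched for in the 3′ UTRs. Sequences are from RefSeq on GRCh38.p14, 5′ to 3′, and both lie on the minus strand of chromosome 5, at chr5:55170586-55170607 for miR-449a and chr5:180015361-180015382 for miR-340-5p.
miR-449a: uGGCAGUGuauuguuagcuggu
miR-340-5p: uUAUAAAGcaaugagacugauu
The word complementary to the miR-449a seed is CACTGCC, and that for miR-340-5p is CTTTATA. They were searched on the transcript strand only, taking for every gene its longest 3′ UTR in the annotation (GENCODE 29, GRCh38), and the 8-base forms CACTGCCA and CTTTATAA end in an A. The 2 words can overlap only in a single C.

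The stretches below hold words in some of the genes that fell, each in the 8-base form, and in PTBP3 and SRSF11, which rose. SRSF9, which also rose, has neither word in its longest 3′ UTR. The word is in capitals, and the coordinates are those of the word.
PTBP2, plus strand, chr1:96817894-96817900: attgttcaaaacacaCTTTATAattttta
PTBP2, plus strand, chr1:96823474-96823480: gataagcaaaaacccCTTTATAaaaaatg
HNRNPDL, minus strand, chr4:82424506-82424512: agagaaactgtggtcCTTTATAaatagcc
HNRNPR, minus strand, chr1:23309411-23309417: attttgacccacattCTTTATAagggata
HNRNPH3, plus strand, chr10:68342143-68342149: tttgtattttaagaaCTTTATAatgactg
HNRNPA1, plus strand, chr12:54286999-54287005: actgtacttcgttatCACTGCCatgcagt
PTBP3, minus strand, chr9:112218172-112218178: atgcaccttctctggCACTGCCccgtaat
SRSF11, plus strand, chr1:70252975-70252981: ccagttgaaatcaaaCACTGCCtccacac
The words shown for PTBP2, HNRNPDL, HNRNPR, HNRNPH3 and HNRNPA1 are followed by an A, and those of PTBP3 and SRSF11 are not. The form did not divide genes that fell from genes that rose: the other 3 words of PTBP2, the other word of HNRNPR and every word of HNRNPUL1, HNRNPU and SRSF7, which also fell, are not followed by an A. A match is a description of the sequence and does not show that the microRNA acts there.

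Most of the splicing regulators were lower in cells with the microRNA pair. Of the 40 genes, 37 passed the filter on low counts and were tested, and 28 of these fell, 3 rose and 6 were not past the test (edgeR quasi-likelihood test, adjusted p under 0.05 over 12366 tested genes). The share that fell was 75.7%, where 34.0% of all tested genes fell, and the share that rose was 8.11%, where 33.4% of all tested genes rose. In 27 of the genes every library with the microRNAs was below every vehicle library, against 29.7% of all tested genes, and in 3 every such library was above, against 29.2%. The median log2 fold change was -0.50 over the 37 genes and -0.00067 over all tested genes. At least 2-fold falls were found in 6 of the 37 and in 1622 of the 12366, and these shares are close to each other. At least 2-fold rises were found in 0 of the 37 and in 1542 of the 12366. In bulk RNA, less RNA per cell and fewer cells of a kind cannot be told apart.

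**Figure D1:**
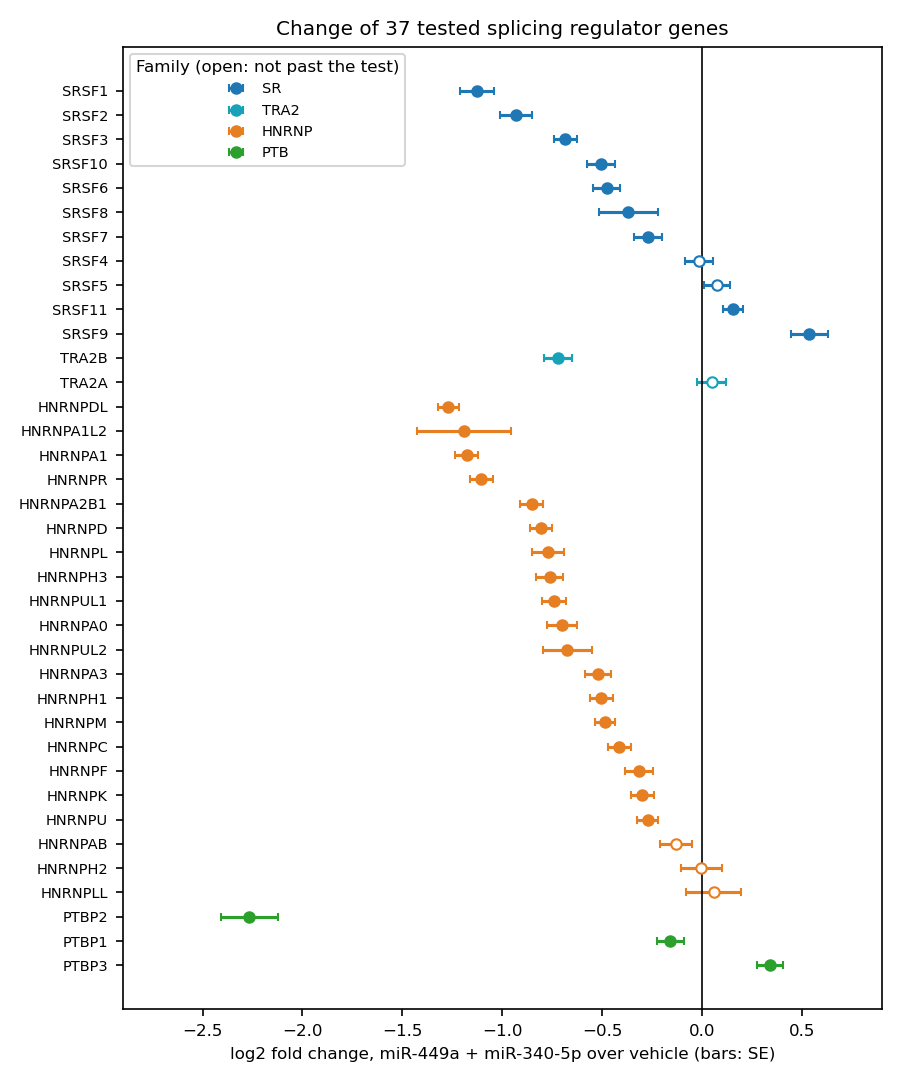
Log2 fold change of the 37 tested splicing regulator genes (horizontal axis, microRNA pair over vehicle) with its standard error, coloured by family, with open points for genes that did not pass the test. PTBP2 lies farthest to the left at -2.27, and SRSF9 farthest to the right at 0.54.

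Among the SR genes, 7 of 11 tested fell and 2 rose, while 2 were not past the test, and the median log2 fold change was -0.37. These are 63.6% lower and 18.2% higher, beside 34.0% and 33.4% of all tested genes. SRSF1 and SRSF2, both classical SR proteins that bind exonic enhancers, fell most. Both lie on chromosome 17, at chr17:58003360-58007346 and chr17:76734115-76737374 (GENCODE 29, GRCh38, as are all gene positions given). SRSF1 had 76.0, 79.3, 57.2 and 85.9 CPM in the libraries with the microRNAs, against 165, 150, 169 and 172 CPM in the vehicle libraries. Its groups stood well apart, and it was 2.18-fold lower (log2 fold change -1.13, SE 0.08, adjusted p = 7.49e-18). SRSF2 had 105, 110, 94.3 and 141 CPM with the microRNAs, against 229, 205, 214 and 210 CPM with vehicle, and was 1.91-fold lower (log2 fold change -0.93, SE 0.08, adjusted p = 8.13e-15). The highest library with the microRNAs, at 141 CPM, was still below every vehicle library.

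SRSF3, a small SR protein that also takes part in mRNA export, was 1.61-fold lower, at 259 ± 15.03 CPM with the microRNAs and 417 ± 22.6 CPM with vehicle (SD, n = 4 each). SRSF10, a splicing repressor when dephosphorylated, fell by 0.51 log2 units and SRSF6 by 0.48. SRSF7, the closest relative of SRSF3, fell by 0.27, with 146 to 172 CPM in the libraries with the microRNAs and 173 to 202 CPM in the vehicle libraries. That gap was narrow, and with library size as the only scaling SRSF7 did not pass (log2 fold change -0.13, adjusted p = 0.113, range over 18 alternatives 0.000118 to 0.113). SRSF8, a relative of SRSF2 at 18.1 ± 2.54 CPM with the microRNAs and 23.7 ± 1.21 CPM with vehicle, had a log2 fold change of -0.37 (adjusted p = 0.0234). Without replicate 3 of the microRNA pair its adjusted p was 0.0794 and without vehicle replicate 4 it was 0.0668, and over 18 alternatives it ran from 0.0142 to 0.167.

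SRSF9 and SRSF11 were the SR genes that rose. SRSF9, a close relative of SRSF1 at chr12:120461668-120469793, had 90.9, 101, 77.8 and 105 CPM with the microRNAs, against 66.9, 67.6, 64.7 and 60.8 CPM with vehicle. The groups did not overlap, and the fitted difference was 1.45-fold (log2 fold change 0.54, SE 0.09, adjusted p = 6.32e-07). SRSF9 overlaps GATC on the opposite strand, and GATC was lower, at 31.7 CPM with the microRNAs and 72.2 CPM with vehicle. SRSF11, also called p54 and located at chr1:70205682-70253052, had 842, 833, 830 and 798 CPM with the microRNAs, against 748, 734, 740 and 751 CPM with vehicle. The groups did not overlap, but the difference was small, 1.11-fold (log2 fold change 0.15, SE 0.05, adjusted p = 0.00715). SRSF4 measured 136 ± 7.46 CPM with the microRNAs and 138 ± 3.68 CPM with vehicle, and SRSF5 238 ± 18.7 CPM against 226 ± 18.7 CPM, and neither passed (adjusted p = 0.844 and 0.319). With library size as the only scaling, SRSF5 passed as higher (log2 fold change 0.21, adjusted p = 0.00475, range over 18 alternatives 0.00475 to 0.719).

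SRSF12 was not tested. It had 0, 2, 0 and 0 counts in the libraries with the microRNAs, against 2, 5, 6 and 4 counts in the vehicle libraries. With library sizes allowed for, the ratio over the summed counts was 0.0987, with an exact 95% interval from 0.0111 to 0.416 that covers counting error only.

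The transformer-2 pair, SR-like proteins that bind GAA-rich enhancers, split. TRA2B, at chr3:185915906-185938136, had 135, 131, 124 and 127 CPM with the microRNAs, against 199, 205, 212 and 237 CPM with vehicle, and fell 1.65-fold (log2 fold change -0.72, SE 0.07, adjusted p = 3.69e-14). TRA2A had 147, 142, 129 and 136 CPM with the microRNAs, against 124, 124, 138 and 150 CPM with vehicle. Its groups overlapped and it did not pass (log2 fold change 0.05, SE 0.07, adjusted p = 0.575), although it passed as higher with library size alone (0.18, adjusted p = 0.0378, range over 18 alternatives 0.0378 to 0.982). Within a library, where no scaling enters, the count ratio of TRA2A to TRA2B was 1.07 ± 0.0239 with the microRNAs and 0.627 ± 0.0193 with vehicle (SD, n = 4 each). TRA2A thus held more counts than TRA2B in each library with the microRNAs and fewer in each vehicle library. Counts of different genes also depend on transcript length. Per kilobase of transcript, TRA2A had 75.0 ± 4.29 CPM and TRA2B 43.8 ± 1.59 CPM with the microRNAs. With vehicle they were level, at 72.6 ± 6.90 and 72.3 ± 5.74 CPM per kilobase.

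Of 21 tested HNRNP genes, 18 fell and the other 3 were not past the test, and the median log2 fold change was -0.67. These are 85.7% lower and 0% higher, beside 34.0% and 33.4% of all tested genes. HNRNPDL, a relative of HNRNPD that binds AU-rich RNA, had 311, 301, 291 and 283 CPM with the microRNAs, against 707, 705, 723 and 728 CPM with vehicle. It was 2.41-fold lower, with little spread in either group (log2 fold change -1.27, SE 0.05, adjusted p = 2.97e-29). HNRNPD, also called AUF1, a protein that governs the decay of AU-rich mRNAs, was 1.75-fold lower at 379 ± 21.2 CPM with the microRNAs and 661 ± 27.7 CPM with vehicle. The genes lie near each other on chromosome 4, at chr4:82422564-82430408 for HNRNPDL and chr4:82352498-82374503 for HNRNPD.

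In the A/B group, 5 of 6 genes fell, too few genes for a share to be read against the 34.0% of all tested genes. HNRNPA1, an abundant repressor of exon inclusion encoded at chr12:54280193-54287088, had 199, 186, 188 and 197 CPM with the microRNAs, against 427, 422, 433 and 462 CPM with vehicle. Each group varied little beside the gap between them, and the gene was 2.26-fold lower (log2 fold change -1.18, SE 0.06, adjusted p = 3.25e-26). HNRNPA2B1, a close relative at chr7:26173057-26201529, had 489, 442, 397 and 459 CPM with the microRNAs, against 815, 785, 831 and 806 CPM with vehicle, a 1.81-fold fall (log2 fold change -0.85, SE 0.06, adjusted p = 1.14e-20). HNRNPA2B1 overlaps CBX3 on the opposite strand, and CBX3 was lower too, at 739 CPM against 874 CPM. HNRNPA1L2, a near-identical copy of HNRNPA1, had 5.15, 5.97, 5.16 and 3.86 CPM with the microRNAs, against 14.6, 9.32, 12.1 and 11.8 CPM with vehicle. Its 2.29-fold fall (log2 fold change -1.19, SE 0.24, adjusted p = 1.23e-05) is uncertain, since reads of the abundant gene could be counted at the copy.

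HNRNPA0 fell by 0.70 log2 units and HNRNPA3 by 0.52. HNRNPAB measured 105 ± 6.99 CPM with the microRNAs and 114 ± 9.55 CPM with vehicle, its groups overlapped and it did not pass (adjusted p = 0.14). The unequal falls within this group also showed in ratios taken inside each library. HNRNPA1 to HNRNPA2B1 was 0.433 ± 0.0279 with the microRNAs and 0.539 ± 0.0239 with vehicle, and HNRNPA3 to HNRNPA2B1 was 0.467 ± 0.0324 with the microRNAs and 0.372 ± 0.0236 with vehicle. Neither ratio overlapped between groups.

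HNRNPR, which belongs to the family of the RNA-binding protein SYNCRIP and lies at chr1:23303771-23344336, had 223, 208, 214 and 192 CPM with the microRNAs, against 465, 430, 457 and 452 CPM with vehicle. It was 2.15-fold lower, and its lowest vehicle library was above its highest library with the microRNAs by a wide margin (log2 fold change -1.10, SE 0.06, adjusted p = 9.52e-25). HNRNPL, which binds CA repeats, was 1.71-fold lower at 87.2 ± 8.68 CPM with the microRNAs and 148 ± 10.7 CPM with vehicle. Its paralog HNRNPLL measured 28.0 ± 6.0 CPM against 27.4 ± 1.48 CPM and did not pass (adjusted p = 0.722).

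In the F/H group, whose proteins bind runs of G, 3 of 4 genes fell. This group and the U group below are too small for a share to be read against that of all tested genes. HNRNPH3 was 1.70-fold lower, HNRNPH1 1.42-fold and HNRNPF 1.24-fold, while the X-linked HNRNPH2 measured 58.5 ± 9.82 CPM with the microRNAs and 57.7 ± 2.24 CPM with vehicle (adjusted p = 0.97). The count ratio of HNRNPH1 to HNRNPH2 was 4.21 to 6.29 with the microRNAs and 7.51 to 7.88 with vehicle. All 3 tested genes of the U group, nuclear scaffold-associated proteins, fell: HNRNPUL1 was 1.67-fold lower, HNRNPUL2 1.6-fold and HNRNPU 1.21-fold. HNRNPU overlaps COX20 on the opposite strand, which was lower at 84.3 CPM with the microRNAs and 144 CPM with vehicle.

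HNRNPM was 1.40-fold lower, HNRNPC, a binder of uridine runs that forms the core of the hnRNP particle, 1.33-fold, and HNRNPK, a binder of C-rich RNA, 1.23-fold. For HNRNPC, 6 pseudogene symbols held 1641 counts with the microRNAs and 1648 with vehicle, beside 5539 and 6218 counts for the gene itself, so its level is less certain than that of its relatives. HNRNPCL1 had 3 and 4 counts in all, and HNRNPCL3 8 and 5, and neither was tested.

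Of the 3 PTB genes, PTBP2 and PTBP1 fell and PTBP3 rose. PTBP2, the neuronal form also called nPTB, at chr1:96721665-96823738, had 10.1, 9.89, 9.98 and 10.9 CPM with the microRNAs, against 56.9, 45.8, 42.4 and 53.3 CPM with vehicle. This 4.81-fold difference was the largest among the 37 genes (log2 fold change -2.27, SE 0.14, adjusted p = 1.99e-21). PTBP3, also called ROD1, at chr9:112217716-112333667, had 206, 203, 177 and 209 CPM with the microRNAs, against 154, 163, 158 and 156 CPM with vehicle, and rose 1.27-fold (log2 fold change 0.34, SE 0.07, adjusted p = 1.13e-05). PTBP1, the widely expressed form, had 185, 180, 198 and 187 CPM with the microRNAs, against 181, 195, 226 and 231 CPM with vehicle. Its groups overlapped, and its fall was small (log2 fold change -0.16, SE 0.07, adjusted p = 0.0349). That call was lost in 10 of 18 alternatives, where the adjusted p ran from 0.0059 to 0.798. Leaving out replicate 1 or 2 of the microRNA pair gave 0.0812 and 0.116, and leaving out vehicle replicate 3 or 4 gave 0.146 and 0.223.

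**Figure D2:**
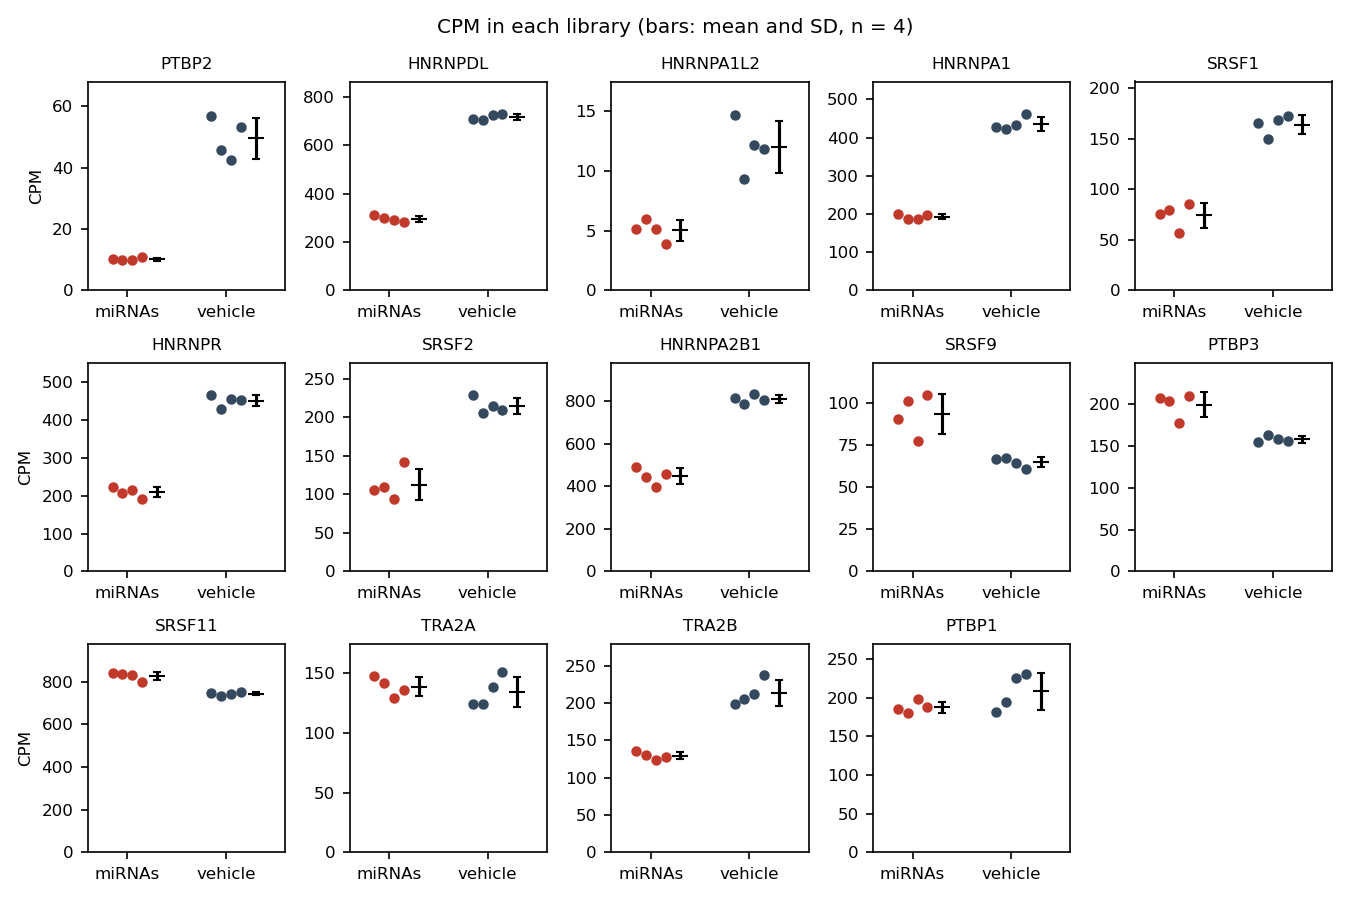
CPM in each library (vertical axes, linear from 0) for the genes with the largest changes and for the TRA2 and PTB genes, with libraries of the microRNA pair left of vehicle libraries and black marks at the group means with SD. The groups are separate in every panel except those of TRA2A and PTBP1.

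As a share of the counts of all 3 PTB genes, PTBP2 took 2.58 ± 0.0802% with the microRNAs and 11.99 ± 1.91% with vehicle (SD, n = 4 each). PTBP3 took 50.1 ± 2.70% against 38.0 ± 2.23%, and PTBP1 47.3 ± 2.69% against 49.97 ± 3.31%. The 3 genes together took 0.0414 ± 0.0017% of all counts with the microRNAs and 0.0394 ± 0.0033% with vehicle, and these groups overlapped. TMM scaling does not enter these shares. On the CPM scale the mean of the 3 genes summed was instead lower with the microRNAs than with vehicle, and the groups overlapped there too. The composition of the family thus differed while its summed share of counts did not separate the groups.

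Other pairs of relatives were compared inside each library too, so that no scaling between libraries enters. Of 17 pairs, 7 had a lower ratio and 7 a higher ratio in every library with the microRNAs, 2 overlapped and 1, SRSF10 to SRSF12, had libraries with 0 counts. The share of separate ratios among other gene pairs was not computed, so these counts are not read as particular to splicing regulators. Taken singly, 29.7% of all tested genes were lower and 29.2% higher in every library with the microRNAs. SRSF1 to SRSF9 was 0.793 ± 0.0449 with the microRNAs and 2.53 ± 0.257 with vehicle, so SRSF9 held more counts than SRSF1 in each library with the microRNAs and fewer in each vehicle library. HNRNPD to HNRNPDL was 1.28 ± 0.0901 against 0.923 ± 0.0348. A ratio of 1 in counts is not an equal level, since the genes differ in length. Per kilobase of transcript, HNRNPD was above HNRNPDL in both groups. The values were 125 and 71.6 CPM per kilobase with the microRNAs, and 218 and 173 with vehicle. SRSF3 to SRSF7 was 1.66 ± 0.166 against 2.23 ± 0.250, SRSF2 to SRSF8 6.28 ± 1.14 against 9.10 ± 0.856, and HNRNPL to HNRNPLL 3.29 ± 1.17 against 5.38 ± 0.239. The ratio of HNRNPL to HNRNPLL varied most within a group, and its highest library with the microRNAs, at 5.00, came close to the lowest vehicle library, at 5.09. SRSF4 to SRSF6 was 0.875 ± 0.0831 against 0.637 ± 0.0427, SRSF5 to SRSF6 1.54 ± 0.230 against 1.04 ± 0.110, and HNRNPU to HNRNPUL1 2.23 ± 0.0830 against 1.62 ± 0.0801. PTBP2 to PTBP1 was 0.0546 ± 0.0032 against 0.242 ± 0.0528, and PTBP3 to PTBP1 1.06 ± 0.111 against 0.766 ± 0.0915. HNRNPF to HNRNPH1 and HNRNPUL2 to HNRNPUL1 were the pairs that overlapped. A ratio within a library shows unequal change and not which gene moved.

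**Figure D3:**
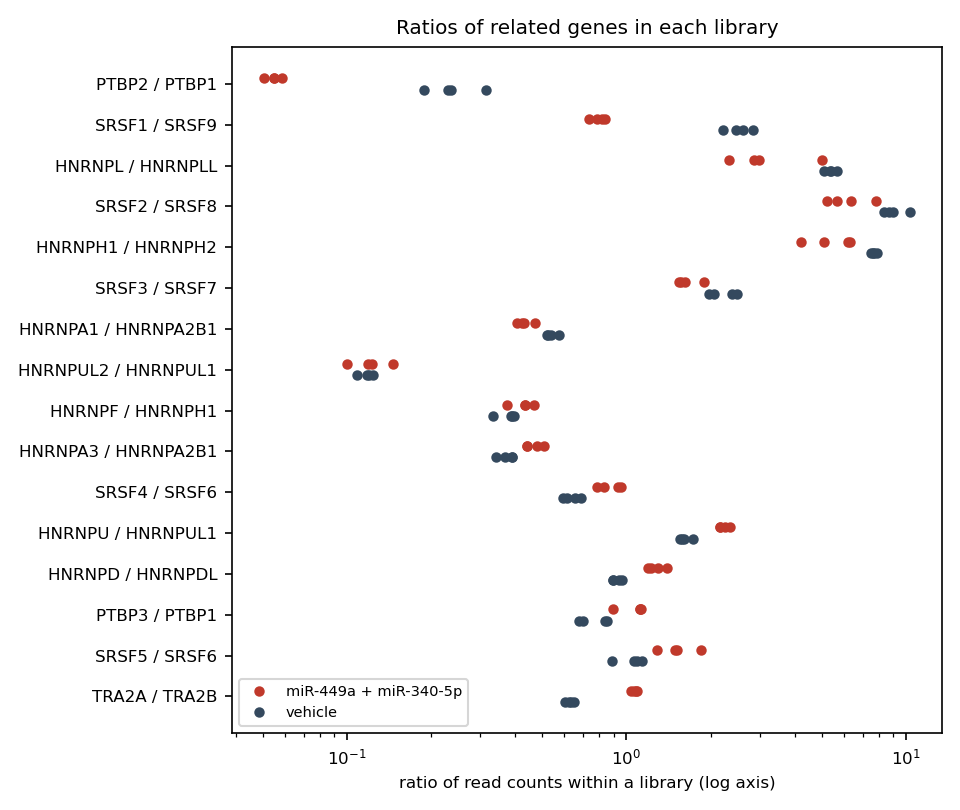
Ratio of read counts of related genes within each library (horizontal log axis), 1 point a library, microRNA pair above vehicle in each row. The ratios of PTBP2 to PTBP1 and of SRSF1 to SRSF9 lie farthest apart, and those of HNRNPUL2 to HNRNPUL1 and HNRNPF to HNRNPH1 overlap.

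Summed over the family, the 23 HNRNP genes took 0.484 ± 0.0130% of all counts with the microRNAs and 0.698 ± 0.0308% with vehicle, and the groups were separate. The SR and TRA2 genes took 0.246% to 0.266% with the microRNAs and 0.265% to 0.289% with vehicle, a slight overlap. These shares are of unscaled library totals, without the TMM scaling behind the CPM values. The TMM factors were 1.03 to 1.07 with the microRNAs and 0.922 to 0.992 with vehicle. Scaling by them moves the SR and TRA2 groups apart, so they do not overlap on the CPM scale. Without mitochondrial genes, the unscaled share of the SR and TRA2 genes was 0.326 ± 0.0081% with the microRNAs and 0.350 ± 0.0031% with vehicle. All 40 genes took 0.782 ± 0.0221% against 1.01 ± 0.0432%. Levels per kilobase used the length of the transcript with the longest coding part, and which transcripts the cells used was not measured. For HNRNPA1 that transcript has 1842 bases, fewer than its longest 3′ UTR of 2543 bases. Among others, the same holds for HNRNPC (1784 and 2201 bases) and PTBP2 (3057 and 10333 bases), so the order of genes is uncertain. Per kilobase of transcript, HNRNPM was the highest in both groups, at 243 ± 6.97 CPM per kilobase with the microRNAs and 340 ± 5.27 with vehicle. SRSF11 was second with the microRNAs, at 218 ± 5.04 CPM per kilobase, and seventh with vehicle, at 196 ± 2.07. HNRNPC followed at 178 ± 9.96 with the microRNAs and 238 ± 11.99 with vehicle. With vehicle HNRNPC was level with HNRNPA1, at 237 ± 9.60 CPM per kilobase, and HNRNPA2B1 at 221 ± 5.26 and HNRNPD at 218 ± 9.14 did not differ beyond their spread. With the microRNAs HNRNPA1 stood at 105 ± 3.54 CPM per kilobase and lay close to HNRNPK at 102 ± 6.45. At the low end, PTBP2 had 3.35 ± 0.157 CPM per kilobase with the microRNAs and 16.2 ± 2.17 with vehicle.

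Seed words of the 2 microRNAs were present in 11 of the 37 tested genes. The miR-340-5p word was in 7, HNRNPDL, HNRNPH3, HNRNPR, HNRNPU, PTBP2, SRSF7 and SRSF8, and all 7 were called lower, with a median log2 fold change of -0.76. Over all tested genes with a 3′ UTR, the word was in 2095 of 10520, of which 34.2% fell, and their median was 0.03. The share of genes with this word was 18.9% among the splicing regulators and 19.9% among all. The miR-449a word was in 4 of the splicing regulators, 10.8%, and in 17.9% of all. HNRNPA1 and HNRNPUL1 with this word fell and PTBP3 and SRSF11 with it rose, while of all 1879 genes with it 40.9% fell (median -0.13). Of the 26 splicing regulators with neither word, 19 fell, 73.1%, with a median of -0.50, against 32.0% of 7010 genes and a median of 0.05. SRSF1, SRSF2, HNRNPA2B1, HNRNPD and TRA2B were among the falls with neither word. The order of these medians depended on the 3′ UTR chosen. In the 3′ UTR of the transcript with the longest coding part, the miR-340-5p word was in 5 of the splicing regulators, with a median of -0.37, and 29 had neither word, with a median of -0.51.

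PTBP2 had 5 miR-340-5p words, 2 of them 8-base forms, in a 3′ UTR of 10333 bases, and none in the 3′ UTR of 1388 bases of its transcript with the longest coding part. The words of HNRNPR lay in a 3′ UTR of 5766 bases and not in that of 671 bases, and the word of HNRNPA1 in one of 2543 bases and not in that of 670 bases. Which of these 3′ UTRs the cells used was not measured. The median longest 3′ UTR was 2046 bases for the splicing regulators and 1469 bases for all tested genes.

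**Figure D4:**
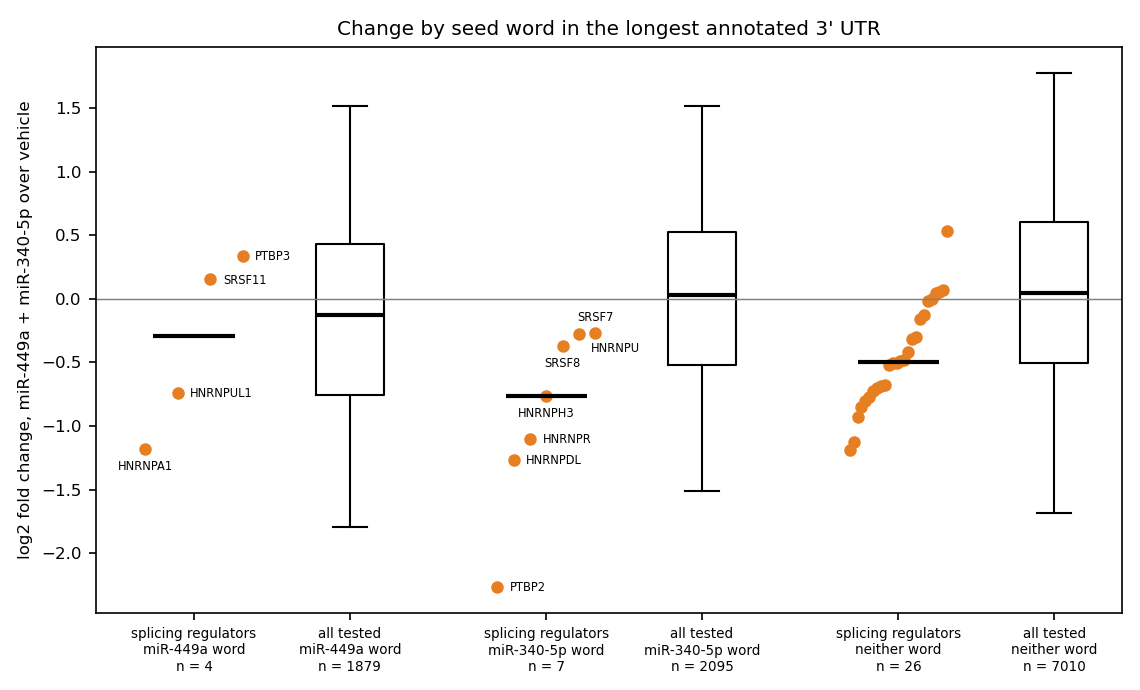
Log2 fold change (vertical axis, microRNA pair over vehicle) of the splicing regulators with a miR-449a word, a miR-340-5p word or neither (points, bars at medians), each beside a box with median, quartiles and whiskers at percentiles 5 and 95 for all tested genes of the same kind. The 7 genes with the miR-340-5p word lie below 0, with a median of -0.76, and the 26 with neither word have a median of -0.50, an order that turns with the 3′ UTR of the transcript with the longest coding part (-0.37 for 5 genes and -0.51 for 29).

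Genes around the splicing regulators were followed in 6 lists. Of 48 tested genes for other sequence-specific regulators of splicing, 30 fell, 5 rose and 13 were not past the test (median log2 fold change -0.32). These are 62.5% lower and 10.4% higher, beside the 34.0% and 33.4% of all tested genes. Among those averaging 5 CPM or more, RBM3, a cold-induced RNA-binding protein, was 2.82-fold lower, RBM38, a p53-responsive RNA-binding protein, 2.66-fold, and RAVER2, a PTB partner, 2.31-fold, while MBNL2, a muscleblind protein, was 2.09-fold higher, RBM5 1.74-fold and FUBP3 1.5-fold. The lowest fold change of the list was that of MBNL3, another muscleblind gene, which averages under 5 CPM and was named after its values were seen. It had 0, 3, 1 and 0 counts with the microRNAs, against 19, 24, 33 and 32 counts with vehicle (log2 fold change -4.84, SE 0.51, adjusted p = 1.2e-12). In the spliceosome core 33 of 62 tested genes fell, 53.2%, and 13 rose, 21.0% (median -0.23). The Sm gene SNRPD2 had 103 ± 6.04 CPM with the microRNAs and 365 ± 39.6 CPM with vehicle and was 3.54-fold lower, LSM2 3.25-fold and the tri-snRNP factor USP39 3.07-fold. PRPF18 was 1.89-fold higher, SYF2 1.88-fold and PRPF6 1.6-fold.

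Among the kinases and importers of SR proteins, 5 of 11 tested genes fell, 4 rose and 2 were not past the test (median -0.30). At 45.5% lower and 36.4% higher, these shares lie near those of all tested genes. SRPK3, a muscle SR protein kinase, had 3.16 ± 1.19 CPM with the microRNAs and 9.72 ± 1.34 CPM with vehicle, and the nuclear importers TNPO3 and TNPO1 were 1.96-fold and 1.62-fold lower. The kinase genes CLK2, SRPK2 and DYRK1A were 1.55-fold, 1.47-fold and 1.33-fold higher. CLK4, another kinase gene averaging under 5 CPM and named after its values were seen, had 105 counts with the microRNAs and 50 with vehicle (log2 fold change 0.79, SE 0.32, adjusted p = 0.0261). Of 25 tested SR-related proteins and coactivators, 7 fell and 10 rose (median 0.08), 28% and 40%, also near the shares of all tested genes. SCAF4 was 2.47-fold, RNPS1 1.68-fold and RBM23 1.55-fold lower, and SCAF1 was 1.68-fold, ACIN1 1.59-fold and RSRP1 1.35-fold higher.

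In the minor spliceosome 2 of 10 genes fell and 4 rose (median 0.10), too few for their shares to be read against those of all tested genes, with ZRSR2 2.79-fold, ZCRB1 1.78-fold and SCNM1 1.28-fold higher, and SNRNP48 2.32-fold and ZMAT5 1.40-fold lower. The calls of RSRP1 and ZMAT5 were lost in 4 and 5 of 18 alternatives, with adjusted p up to 0.0801 and 0.126, against 0.018 and 0.0208 in the test reported. In the exon junction complex and nonsense-mediated decay list 5 of 19 genes fell and 5 rose (median -0.01), 26.3% each way. For a list of 19 genes this is near the shares of all tested genes. EIF4A3, the helicase of the junction complex, was 2.21-fold, MAGOHB 1.74-fold and SMG9 1.70-fold lower, and SMG6, the endonuclease of the decay pathway, was 1.89-fold, NCBP3 1.63-fold and UPF3A 1.39-fold higher. These lists were compared with the splicing regulators by their counts and medians alone.

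**Figure D5:**
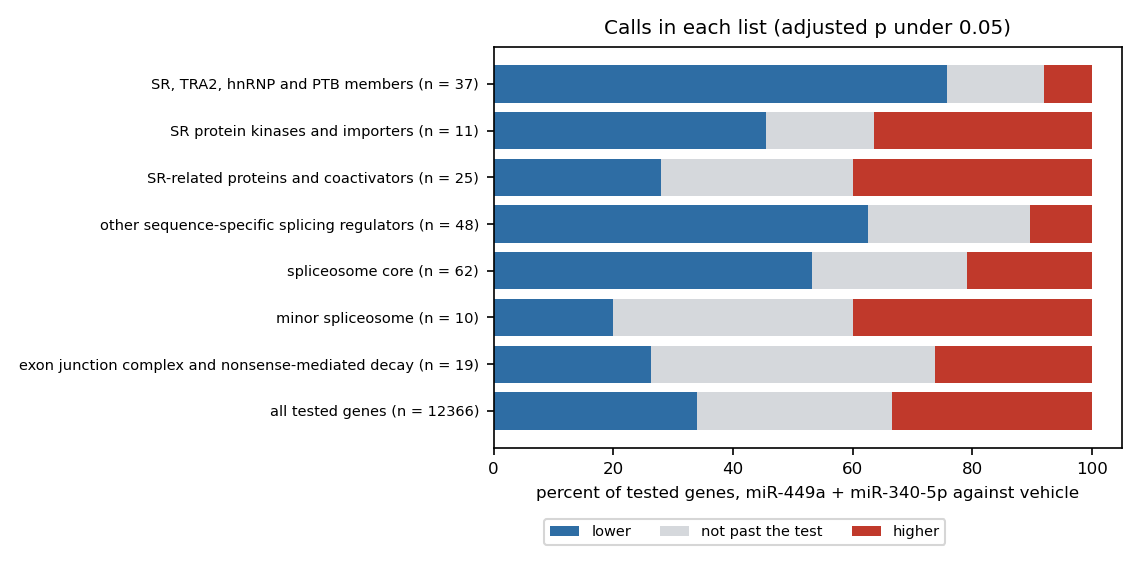
Percent of tested genes called lower, not past the test or called higher (horizontal axis) among the 37 splicing regulators, in 6 related lists and over all tested genes, with the number tested beside each name. The splicing regulators have 75.7% lower and 8.11% higher, and the SR-related list has 7 of 25 genes lower and 10 higher.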

How the data were processed

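The authors deposited 1 table of whole-number counts, with gene symbols as rows and 8 libraries as columns. The authors made stranded mRNA libraries, per the labels' protocols. GRCh38, HTSeq 0.5.3p3, SAMtools 0.1.19.24, TopHat2 2.0.13 and DESeq2 are named in the submitters' processing notes. Which annotation and strand setting the counting used is not given, and genes that overlap may therefore share reads. Genes were kept with edgeR's filterByExpr (minimum count 10, minimum total 15), scaled by TMM, and tested in edgeR 4.0.16 under R 4.3.3 (quasi-likelihood, robust, two-sided, Benjamini-Hochberg over 12366 genes). The kept genes hold 99.5% of counts. Standard errors are the log2 fold change over the square root of F. At these depths the genes with a few CPM were the least precise. Replicates differed by 2.21 to 5.89 chi-square per gene, so none was merged. Word counts and transcript lengths are from GENCODE 29, the lengths from the transcript with the longest coding part. The members, the lists and the paralog pairs were chosen with earlier results of these data known. Full library values are given for up to 8 called genes per direction whose mean reached 5 CPM, and for the TRA2 and PTB genes, and 3 genes per direction are named in each list. DESeq2 1.42.0, limma-voom 3.58.1, other scalings and filters, a replicate block and leaving out each library were alternatives. Tests were tried on simulated counts.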

Additional observations from a re-analysis of the deposited data

Results flagged for a closer look

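HNRNPH3 stood out for 1 library. The third library with the microRNAs had 135 CPM, and the other 3 of that group had 175 to 182 CPM, so the gap took 0.840 of the group's range, above Dixon's critical value for a group of 4. Without it the log2 fold change of HNRNPH3 was -0.68 (adjusted p = 3e-15), and over 18 alternatives the adjusted p ran from 1.77e-28 to 9.3e-11. In all, 74 groups of 4 libraries were examined, and chance gives such a library in about 1 of 20 groups.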

How the results depend on the processing

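The direction of the called genes held in all alternatives run. Under the replicate block 28 genes fell and 3 rose, and no call among the 37 tested splicing regulators changed. Over all tested genes the block gave 4171 lower and 4102 higher, against 4199 and 4125. Replicate numbers were not used to pair libraries, since same-numbered libraries correlated at only 0.0188 to 0.0536, although each correlated best with its own number. Leaving out 1 library at a time gave 26 to 28 genes lower, 3 higher and a median of -0.53 to -0.48. With a threshold of at least 1.5-fold, 16 genes were lower and 0 higher by edgeR, where 3 were higher without that threshold. Of all 12366 tested genes, 2969 were lower and 2846 higher at that threshold. With library size as the only scaling 5 genes were higher and 25 lower, the median was -0.36, all tested genes shifted by 0.14 log2 units, and the calls over all genes split into 4890 higher and 3453 lower, against 4125 and 4199. With upper-quartile scaling the median was -0.45. DESeq2 gave 27 lower and 3 higher, and limma-voom 28 and 3. With 8-base words 6 genes held a seed word, and with the transcript of the longest coding part 8, against 11. The transcript choice also turned the order of the medians of genes with a miR-340-5p word and with neither word (-0.37 and -0.51, against -0.76 and -0.50). Without mitochondrial genes the difference in share of counts was -0.291 percentage points for all 40 genes and -0.270 for the HNRNP genes, against -0.232 and -0.214. For the SR and TRA2 genes it was -0.0240, against -0.0197. Adding pseudogene counts to the parent gene, an alternative chosen after seeing the data, gave 27 lower and 3 higher. In the related lists 21 counts moved by over 1.5 times and 219 did not. With at least 1.5-fold, 15 of 48 tested other sequence-specific regulators were lower and 3 higher. In the spliceosome core 19 of 62 were lower and 5 higher, beside the 2969 and 2846 of all 12366 tested genes. With library size alone, the other sequence-specific regulators had 10 higher and the decay list 9 higher. Depth limited SRSF12, HNRNPCL1 and HNRNPCL3, which had at most 17 counts in a group.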

Other observations

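Within the vehicle group, replicate 2 had the lowest CPM for 19 of the 37 tested genes and the highest for 7, while replicate 4 was the lowest for 4 and the highest for 11. In the group with the microRNAs no replicate was the lowest for more than 12 genes. The median coefficient of variation over these genes was 6.31% with the microRNAs and 5.11% with vehicle.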
